A study of Mus musculus with 20 samples.

Results

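Liver RNA was examined for 10 genes that carry iron into cells, move it out, store it and sense it: *Tfrc*, *Slc11a2*, *Steap3* and *Trf* (uptake), *Slc40a1* (export), *Fth1*, *Ftl1* and *Ncoa4* (storage and release), and *Aco1* and *Ireb2* (sensing). They were chosen by symbol from 54532 genes in the count table. All 10 were among the 12289 genes that reached 2 CPM in 3 or more mice and were tested. CPM scales the count of a gene to the size of its library, here with TMM factors. The livers came from 20 male C57BL/6 mice made obese by 12 weeks of high-fat diet (HFD), which then underwent either sham surgery or a gastric bypass of the Roux-en-Y type (RYGB) and ate chow or HFD for 8 weeks. The groups were Sham Chow (sham surgery, chow), RYGB Chow (bypass, chow), Sham HFD (sham surgery, HFD) and RYGB HFD (bypass, HFD), with 5 mice each and 1 library per mouse. Mice on chow had therefore eaten HFD before surgery as well, and none of the groups was free of surgery or of early HFD.

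Hepatocytes secrete transferrin (*Trf*), which carries iron in plasma. Cells take it up through transferrin receptor 1 (*Tfrc*), the reductase STEAP3 reduces the released iron in endosomes, and the transporter DMT1 (*Slc11a2*) passes it to the cytosol. Iron that is not used is held in a shell of heavy (*Fth1*) and light (*Ftl1*) ferritin chains, NCOA4 delivers ferritin to autophagy to free the iron, and ferroportin (*Slc40a1*) exports it until the liver hormone hepcidin removes ferroportin from the membrane. The iron regulatory proteins IRP1 (*Aco1*) and IRP2 (*Ireb2*) bind iron-responsive elements (IREs) when iron is scarce. A bound IRE in a 5′ UTR blocks translation, and a bound IRE in a 3′ UTR protects the mRNA from decay.

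The IREs are shown because they divide the members into those whose mRNA is known to be protected and those whose translation is known to be blocked. Hairpins with the loop CAGTGN were searched in the coding transcripts of GENCODE M21 (mm10, GRCm38). A C was required 6 bases before the loop. Of the 5 bases next to the loop on either side, at least 4 had to pair, with G-T pairs allowed. The outer 5 bases on either side were not required to pair. Of these, 1 of 5 paired for *Slc11a2*, and 4 or 5 at every other site of a member. A UTR match was found in 5 of the 10 members. In the 8 sequences of 27 bases that follow, written 5′ to 3′ on the strand of the gene, capitals mark the loop.
*Fth1* 5′ UTR: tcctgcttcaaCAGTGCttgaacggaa
*Ftl1* 5′ UTR: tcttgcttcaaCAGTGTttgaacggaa
*Slc40a1* 5′ UTR: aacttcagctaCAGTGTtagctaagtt
*Slc11a2* 3′ UTR: gccatcagagcCAGTGTgtttctatgg
*Tfrc* 3′ UTR, first site: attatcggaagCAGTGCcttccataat
*Tfrc* 3′ UTR, next site: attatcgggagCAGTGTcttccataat
*Tfrc* 3′ UTR, next site: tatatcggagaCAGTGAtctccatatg
*Tfrc* 3′ UTR, last site: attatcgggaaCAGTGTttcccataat

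The *Fth1* hairpin lies at chr19:9982733-9982759 (plus strand), that of *Ftl1* at chr7:45459780-45459806 (minus strand) and that of *Slc40a1* at chr1:45925466-45925492 (minus strand). The *Slc11a2* hairpin lies at chr15:100395154-100395180 (minus strand). The 4 *Tfrc* hairpins follow each other on the plus strand at chr16:32631220-32631246, chr16:32631599-32631625, chr16:32631664-32631690 and chr16:32631711-32631737. Each of the 8 hairpins lies within 1 exon. The *Slc11a2* hairpin was in 1 of 6 annotated coding transcripts, that of *Slc40a1* in 1 of 4 and that of *Ftl1* in 1 of 2. Each *Tfrc* hairpin was in 1 of 3, and that of *Fth1* in 4 of 5. The gene counts do not separate these transcripts. The same search matched 0.905% of 21877 genes with coding transcripts in a 5′ UTR and 3.95% in a 3′ UTR, so a match of these letters is a description and not by itself a working site. *Trf*, *Steap3*, *Ncoa4*, *Aco1* and *Ireb2* had no match.

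Libraries held between 14604854 and 22537498 counts (median 19056997), of which 0.416% to 0.557% fell in the members. The smallest count of any member in any mouse was 146 (*Tfrc* in Sham Chow replicate 4). Of 8 hepatocyte markers, such as *Alb* and *Ttr*, all 8 were tested, and their summed expression was 76998 to 89344 CPM in Sham HFD, 106543 to 126779 CPM in RYGB HFD, 88638 to 108399 CPM in Sham Chow and 80993 to 128840 CPM in RYGB Chow. RYGB Chow replicate 3 stood apart from its group, with the lowest hepatocyte sum and the highest sum of 11 Kupffer cell markers (748 CPM, against 329 to 462 CPM in the other 4 mice). In whole tissue, fewer cells of a type and less RNA per cell cannot be told apart.

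Of the 10 members, 0 passed an adjusted p of 0.05 in Sham Chow vs. RYGB Chow, where 0.057% of all tested genes did. In Sham HFD vs. RYGB HFD, 3 members (*Tfrc*, *Slc11a2* and *Trf*) rose and 3 (*Fth1*, *Ftl1* and *Ncoa4*) fell, against 16.4% of all tested genes in either direction. In Sham Chow vs. Sham HFD *Trf* fell and no other member passed (21.6% of all genes). In RYGB Chow vs. RYGB HFD, *Steap3* and *Trf* rose and *Ftl1* fell (3.65% of all genes). The interaction, which asks whether the response to HFD differed between RYGB and sham mice, was past the threshold for *Trf*, *Fth1* and *Ftl1* (5.06% of all genes). These contrasts share groups, so they are not independent of each other. The paper reports that Sham HFD mice weighed more than the mice of every other group. In contrasts with Sham HFD, and in the interaction, body weight therefore cannot be told apart from diet or surgery. At an unadjusted p under 0.05, *Tfrc* and *Slc11a2* were higher and *Ireb2* was lower in Sham Chow vs. RYGB Chow. The share of all genes at that unadjusted p is not given here, so these 3 members cannot be set against it. DESeq2 called *Tfrc* (adjusted p = 0.0129) and *Slc11a2* (adjusted p = 0.0483) there, among 92 calls over all 12289 genes. With limma-voom 0 members were called, against 3 of all genes.

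Groups did not overlap for 1 member (*Tfrc*) in Sham Chow vs. RYGB Chow, where 1.33% of all tested genes did so. For 5 members (*Tfrc*, *Slc11a2*, *Trf*, *Fth1* and *Ftl1*) this held in Sham HFD vs. RYGB HFD (14.7% of all genes). It held for 2 (*Trf* and *Ireb2*) in Sham Chow vs. Sham HFD (16.5% of all genes) and for 4 (*Steap3*, *Trf*, *Fth1* and *Ftl1*) in RYGB Chow vs. RYGB HFD (5.05% of all genes). The smallest p that an exact permutation test of 5 mice against 5 allows is 0.00794.

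**Figure D1:**
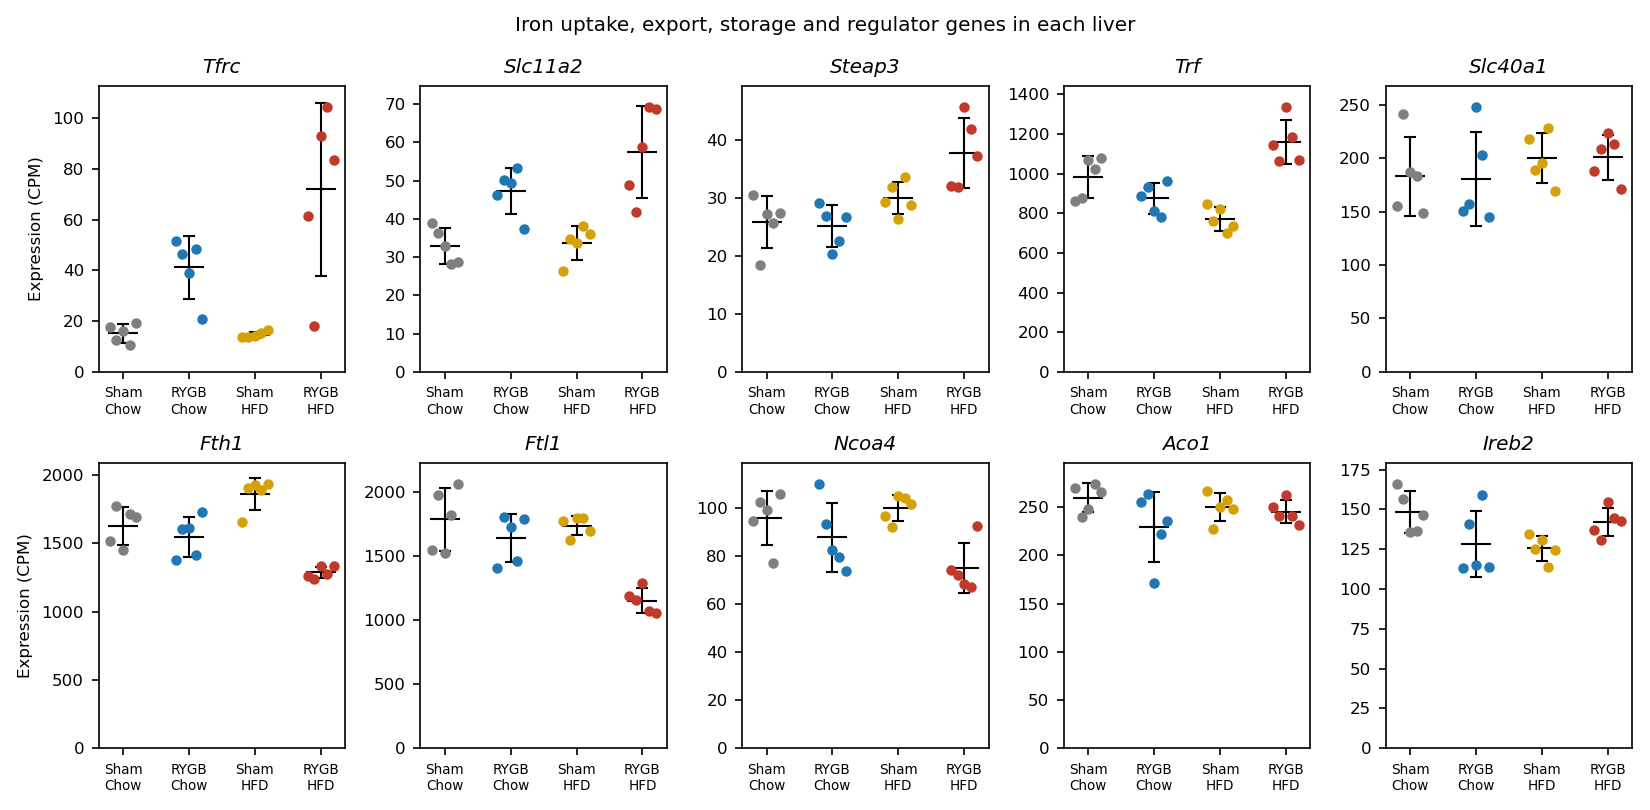
Expression of the 10 members in each liver, in CPM on axes from 0, one panel per gene. Points are single mice in the order of replicates 1 to 5, and black bars are the mean ± SD of 5 mice. *Tfrc* lay between 10.4 and 19.2 CPM in all 10 sham mice and between 18.01 and 104 CPM in the 10 RYGB mice, and ferritin chains were lowest in RYGB HFD.

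The largest difference among the members was that of *Tfrc* (chromosome 16, 32608920 to 32632794), the receptor that draws iron-loaded transferrin into the cell. Its expression in replicates 1 to 5 was 17.5, 12.6, 16.0, 10.4 and 19.2 CPM in Sham Chow, and 51.7, 46.6, 39.2, 48.4 and 20.7 CPM in RYGB Chow. In Sham HFD it was 13.7, 13.8, 14.0, 15.5 and 16.4 CPM, and in RYGB HFD 61.3, 18.01, 92.9, 104 and 83.5 CPM. On either diet every RYGB mouse was above every sham mouse, but RYGB Chow replicate 5 and RYGB HFD replicate 2 lay close to the sham range while the others stood far above it.

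Mean *Tfrc* was 14.7 ± 1.21 CPM (SD, n = 5) in Sham HFD and 72.0 ± 34.1 CPM (n = 5) in RYGB HFD, a difference of 2.30 (SE 0.32) on the log2 scale or 4.91-fold (adjusted p = 6.29e-05). On chow the means were 15.1 ± 3.60 CPM in Sham Chow and 41.3 ± 12.4 CPM in RYGB Chow (n = 5 each), which did not pass the adjusted threshold at a log2 difference of 1.44 (SE 0.32, 95% interval 0.78 to 2.11, adjusted p = 0.0970). Its group ranges did not overlap there (exact permutation p = 0.00794, two-sided). Diet made no detectable difference in sham mice (log2 difference −0.05, adjusted p = 0.926).

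Whether HFD added to *Tfrc* after RYGB depended on 1 mouse. RYGB Chow vs. RYGB HFD differed by 0.80 (SE 0.31, adjusted p = 0.155), and without RYGB HFD replicate 2 by 1.04 (adjusted p = 0.00966). Without that mouse the interaction was 1.09 (adjusted p = 0.0434) in place of 0.85 (adjusted p = 0.281). Sham Chow vs. RYGB Chow passed as well (adjusted p = 0.0102), though that mouse is outside this contrast and the difference stayed at 1.445. The contrast also passed without RYGB Chow replicate 5, at 1.61 (adjusted p = 0.0421). Of 20 fits that left out 1 mouse it passed in these 2, with adjusted p up to 0.280 (without Sham Chow replicate 4). RYGB HFD replicate 2 also had the highest level of the hepcidin gene *Hamp* in its group, at 0.52 CPM against 0.059 to 0.16 CPM in the other 4 mice, levels of 1 to 10 counts.

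*Slc11a2* (chromosome 15, 100387898 to 100425072), the transporter that passes endosomal iron to the cytosol, was also higher after RYGB on HFD, over a smaller range than *Tfrc*. It was 38.9, 36.3, 32.9, 28.1 and 28.6 CPM in Sham Chow, and 46.4, 50.04, 49.4, 53.4 and 37.4 CPM in RYGB Chow. In Sham HFD it was 26.4, 34.6, 33.7, 38.0 and 36.1 CPM, and in RYGB HFD 48.9, 41.8, 58.9, 69.2 and 68.6 CPM. The same RYGB mice were lowest in their groups as for *Tfrc*, replicate 5 on chow and replicate 2 on HFD. The mean rose from 33.8 ± 4.45 to 57.5 ± 12.1 CPM (n = 5 each) in Sham HFD vs. RYGB HFD, by 0.77 (SE 0.14, adjusted p = 6.59e-04) or 1.70-fold. On chow the log2 difference was 0.52 (SE 0.14, adjusted p = 0.173), with replicate 5 of RYGB Chow inside the sham range. The interaction was 0.25 (SE 0.19, 95% interval −0.16 to 0.65), so the RYGB differences on the 2 diets were not distinguishable. *Slc11a2* shares 402 exon bases with *Gm5475* on the opposite strand, which held 23 counts over all mice against 15903 for *Slc11a2*.

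Over the 20 mice, *Slc11a2* was the gene most like *Tfrc* among 12288 others, and *Tfrc* the most like *Slc11a2*. The root mean square difference of their log2(CPM + 0.5), each scaled to mean 0 and SD 1, was 0.39, against a median of 1.37 over all genes. Next to *Tfrc* came *Ulk1* (0.48), *Fgfr2* (0.58), *Pzp* (0.58) and *Mug1* (0.59), and next to *Slc11a2* came *Ulk1* (0.46), *Atp8b1* (0.49), *Gm4952* (0.52) and *Gabpb2* (0.53). All of these genes rose in Sham HFD vs. RYGB HFD, by 0.36 (*Gabpb2*) to 0.84 (*Pzp*) on the log2 scale. The mice share the same group structure for every gene, so likeness includes the group differences themselves.

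**Figure D2:**
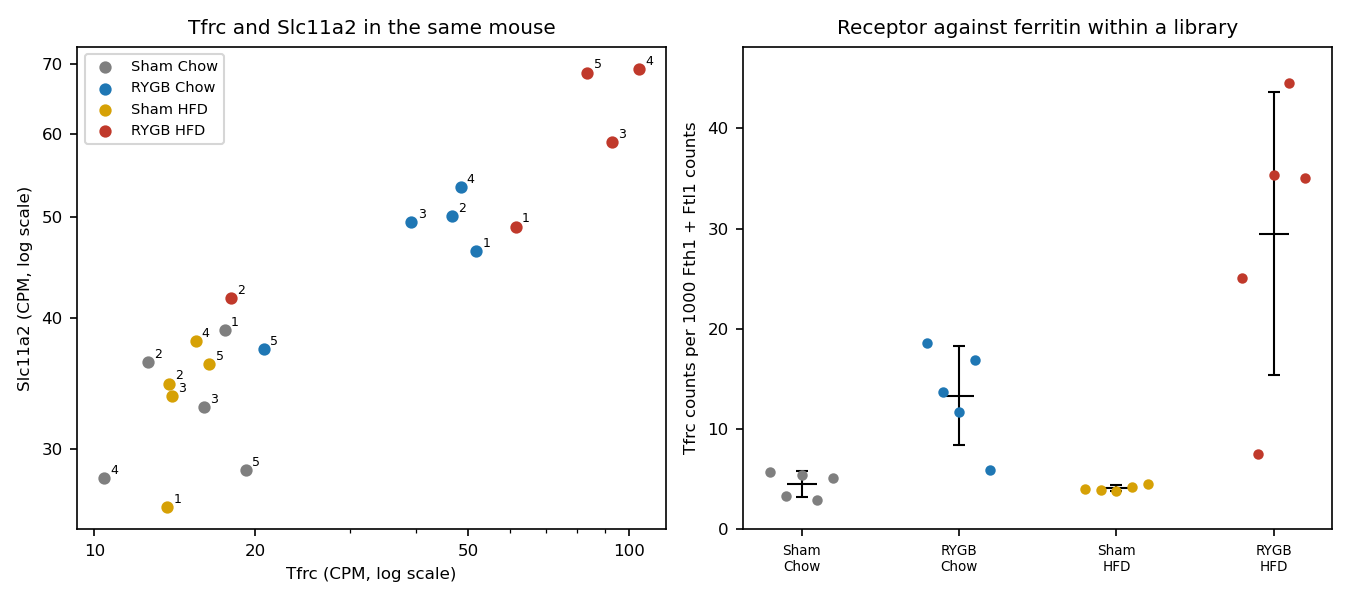
Left, *Slc11a2* against *Tfrc* in each mouse (CPM, both axes on a log scale), colored by group and numbered by replicate. Right, *Tfrc* counts per 1000 counts of *Fth1* and *Ftl1* in the same library, with mean ± SD of 5 mice. RYGB Chow replicate 5 and RYGB HFD replicate 2 sit beside the sham mice on the left, and the RYGB HFD ratio spans 7.50 to 44.6.

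*Steap3* (chromosome 1, 120190757 to 120272705), the endosomal ferrireductase, was highest in RYGB HFD. Its values in replicates 1 to 5 were 29.2, 26.9, 20.4, 22.6 and 26.8 CPM in RYGB Chow and 32.1, 31.9, 45.7, 41.9 and 37.3 CPM in RYGB HFD, which did not overlap. The difference was 0.59 (SE 0.13, adjusted p = 0.0151) and the means 25.2 ± 3.59 and 37.8 ± 6.06 CPM (n = 5 each). Sham Chow ranged from 18.4 to 30.6 CPM and Sham HFD from 26.4 to 33.6 CPM. In Sham HFD vs. RYGB HFD *Steap3* differed by 0.33 (SE 0.13, adjusted p = 0.0812), and on chow by −0.04 (adjusted p = 0.949). The former passed without Sham Chow replicate 2 (adjusted p = 0.0428), a mouse outside that contrast. The interaction was 0.37 (SE 0.18, adjusted p = 0.248).

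*Trf* (chromosome 9, 103204001 to 103230444), the plasma carrier made by hepatocytes, was the only member to pass in 3 contrasts and in the interaction. Sham Chow held 862, 876, 1069, 1025 and 1079 CPM, and RYGB Chow 885, 935, 810, 781 and 962 CPM. Sham HFD held 844, 762, 822, 699 and 735 CPM, and RYGB HFD 1146, 1063, 1335, 1184 and 1069 CPM. Sham HFD was lowest and RYGB HFD highest, with Sham HFD below every Sham Chow mouse and RYGB HFD above every mouse of Sham HFD and RYGB Chow.

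In sham mice *Trf* fell with HFD by 0.35 on the log2 scale (SE 0.09, adjusted p = 0.00909), from 982 ± 105.6 to 772 ± 60.2 CPM (n = 5 each). After RYGB it rose with HFD by 0.41 (SE 0.09, adjusted p = 0.0143), from 875 ± 77.8 to 1159 ± 111 CPM (n = 5 each). The interaction of 0.75 (SE 0.13, adjusted p = 0.00201) tested this difference in direction, and Sham HFD vs. RYGB HFD differed by 0.59 (SE 0.09, adjusted p = 1.46e-04). On chow the difference was −0.17 (adjusted p = 0.511).

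Hepatocyte markers moved in some of the same contrasts. Of the 8, 6 were higher and 1 lower in Sham HFD vs. RYGB HFD (median log2 difference 0.48, against 0.01 over all genes), and 5 were lower in Sham Chow vs. Sham HFD (median −0.41). In the interaction 3 of the 8 were higher (median 0.49), the direction of *Trf*. In RYGB Chow vs. RYGB HFD, where *Trf* also rose, 0 of the 8 were called by edgeR, DESeq2 or limma-voom, with 3 at an unadjusted p under 0.05 and a median of 0.03. Per 1000 counts of the 8 markers, *Trf* held 9.21 ± 1.11 counts in Sham HFD and 10.04 ± 0.830 in RYGB HFD, with overlapping ranges of 8.23 to 10.96 and 8.92 to 11.1. This ratio was 9.82 ± 0.750 in Sham Chow and 8.07 ± 1.20 in RYGB Chow (n = 5 in each group). Most of the marker sum was *Alb*, with means of 59965 CPM in Sham HFD and 83392 CPM in RYGB HFD, so the ratio is mainly one to *Alb*. *Ttr* was the marker that went the other way, with means of 5586 CPM in Sham HFD and 4084 CPM in RYGB HFD. The part of hepatocyte RNA in the *Trf* differences was not tested further. *Trf* shares 2108 exon bases with *Gm20425* on the same strand, which held 0 counts. How reads that match both genes were counted is not given in the sources used here, so *Trf* may lack some of them.

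*Slc40a1* (chromosome 1, 45908068 to 45926523), which encodes the exporter ferroportin, passed in no contrast. Its expression was 155, 242, 187, 183 and 149 CPM in Sham Chow and 150, 157, 248, 203 and 145 CPM in RYGB Chow. The HFD groups held 218, 189, 195, 229 and 170 CPM (Sham HFD) and 188, 209, 224, 214 and 171 CPM (RYGB HFD). All groups overlapped, and the mouse with the highest level (248 CPM) was RYGB Chow replicate 3, which also had the highest Kupffer cell marker sum. The next highest mouse, Sham Chow replicate 2 (242 CPM), had a marker sum of 312 CPM. RYGB HFD replicate 1, with the next highest marker sum (607 CPM), had *Slc40a1* at 188 CPM. The log2 difference in Sham HFD vs. RYGB HFD was 0.01 with a 95% interval of −0.30 to 0.31, and its sign changed with the scaling. In Sham Chow vs. RYGB Chow it was −0.02 (95% interval −0.32 to 0.28) and also changed sign with the scaling.

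Ferroportin is abundant in Kupffer cells as well as hepatocytes. All 11 Kupffer cell markers, such as *Clec4f* and *Vsig4*, were higher in RYGB Chow than in Sham Chow at an unadjusted p under 0.05 (median 0.82), although 0 passed after adjustment with edgeR or limma-voom and 6 with DESeq2. Of the same 11, 7 rose in Sham Chow vs. Sham HFD (median 0.70). In Sham HFD vs. RYGB HFD 0 were called by edgeR, DESeq2 or limma-voom, and 0 had an unadjusted p under 0.05 (median 0.09). Their summed expression was 164 to 400 CPM in Sham Chow and 329 to 748 CPM in RYGB Chow, and on HFD 368 to 495 CPM after sham surgery and 326 to 607 CPM after RYGB. Their part in the *Slc40a1* values was not tested.

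*Fth1* (chromosome 19, 9980598 to 9985098), the heavy ferritin chain that oxidizes iron for storage, was lowest in RYGB HFD. Sham Chow held 1520, 1773, 1448, 1713 and 1696 CPM, and RYGB Chow 1380, 1607, 1612, 1413 and 1730 CPM. Sham HFD held 1659, 1903, 1926, 1889 and 1937 CPM, and RYGB HFD 1261, 1240, 1334, 1275 and 1332 CPM. Every RYGB HFD mouse lay below every mouse of the other 3 groups, and the spread within RYGB HFD was small, with a coefficient of variation of 3.29%.

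In Sham HFD vs. RYGB HFD *Fth1* fell by 0.53 on the log2 scale (SE 0.08, adjusted p = 8.60e-05), from 1863 ± 115 to 1288 ± 42.4 CPM (n = 5 each). In RYGB Chow vs. RYGB HFD the log2 difference was −0.27 (SE 0.08, adjusted p = 0.0577), with no overlap of the groups (exact permutation p = 0.00794, two-sided). It passed without RYGB Chow replicate 1 (−0.30, adjusted p = 0.0408) and without Sham HFD replicate 1 (−0.27, adjusted p = 0.0458), a mouse outside that contrast. In sham mice the log2 difference with HFD was 0.19 (SE 0.08, adjusted p = 0.0773), or 0.24 (adjusted p = 0.0408) without Sham HFD replicate 1. The interaction was −0.46 (SE 0.11, adjusted p = 0.0185), and it missed the threshold when low counts were not filtered (adjusted p = 0.0544). Stellate cell markers moved the same way in the interaction, with 3 of 8 lower (median −0.76). Of the 11 Kupffer cell markers 8 were lower there at an unadjusted p under 0.05 (median −0.76), with 0 called by edgeR or limma-voom and 2 by DESeq2. The part of these cell types in the ferritin interactions was not tested.

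*Ftl1* (chromosome 7, 45457944 to 45459884), the light ferritin chain that helps form the iron core, gave a like picture. Sham Chow held 1546, 1981, 1527, 1822 and 2066 CPM, and RYGB Chow 1411, 1808, 1730, 1460 and 1793 CPM. Sham HFD held 1775, 1628, 1796, 1798 and 1696 CPM, and RYGB HFD 1190, 1161, 1292, 1069 and 1054 CPM. RYGB HFD was again below all mice of the other 3 groups. After RYGB on HFD *Ftl1* fell by 0.59 (SE 0.10, adjusted p = 2.61e-04), from 1739 ± 74.4 to 1153 ± 97.0 CPM. In RYGB Chow vs. RYGB HFD it fell by 0.51 (SE 0.10, adjusted p = 0.00433), from 1640 ± 190 CPM (n = 5 in each group). In Sham Chow vs. RYGB Chow the log2 difference was −0.12 (95% interval −0.32 to 0.07) for *Ftl1* and −0.07 (95% interval −0.23 to 0.09) for *Fth1*. The *Ftl1* interaction, −0.47 (SE 0.14, adjusted p = 0.0485), was at the threshold. It was lost without the filter on low counts (adjusted p = 0.0879) and in 15 of 20 fits that left out 1 mouse, which gave adjusted p from 0.0334 to 0.0921.

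Reads of ferritin light chain copies can be divided between rows of the table, since how reads with several matches were counted is not given in the sources used here. The row *Ftl1-ps1* held 10575 counts, *Ftl2-ps* 172 and *Ftl1-ps2* 0, against 592993 for *Ftl1* and 595866 for *Fth1*, so *Ftl1* levels are less certain for this reason. The ratio of *Ftl1* to *Fth1* counts was 1.09 ± 0.0780 in Sham Chow and 1.06 ± 0.0421 in RYGB Chow, and on HFD it was 0.937 ± 0.0841 after sham surgery and 0.896 ± 0.0765 after RYGB (n = 5 each). Against the 8 hepatocyte markers the mean of *Fth1* was lowest in RYGB HFD, but its range there (10.5 to 11.97 counts) overlapped that of RYGB Chow (11.1 to 19.9). Per 1000 counts of those markers *Fth1* held 22.1 ± 0.593 counts in Sham HFD, 16.4 ± 1.78 in Sham Chow, 14.5 ± 3.41 in RYGB Chow and 11.2 ± 0.537 in RYGB HFD (n = 5 each). The same ratio of *Ftl1* was 8.80 to 10.6 in RYGB HFD, below RYGB Chow (11.3 to 21.4), Sham Chow (14.1 to 21.0) and Sham HFD (18.7 to 23.1). As for *Trf*, these are mainly ratios to *Alb*.

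*Ncoa4* (chromosome 14, 32159865 to 32179855), the receptor that hands ferritin to autophagy, fell in Sham HFD vs. RYGB HFD. Sham HFD held 96.5, 92.0, 105, 104 and 101 CPM, and RYGB HFD 74.3, 72.1, 68.3, 66.8 and 92.4 CPM. Replicate 5 of RYGB HFD fell inside the Sham HFD range and the other 4 mice below it. The decrease was 0.42 on the log2 scale (SE 0.11, adjusted p = 0.0112) and 0.50 without replicate 5. Sham Chow ranged from 77.1 to 105.6 CPM and RYGB Chow from 73.5 to 110 CPM, and the remaining contrasts of *Ncoa4* did not pass, with log2 differences from −0.23 to 0.06.

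The ratio of receptor to ferritin within a library uses no scaling between mice. *Tfrc* counts per 1000 counts of *Fth1* and *Ftl1* were 4.50 ± 1.26 in Sham Chow and 13.3 ± 4.94 in RYGB Chow (n = 5 each). They were 4.07 ± 0.294 in Sham HFD and 29.5 ± 14.1 in RYGB HFD (n = 5 each). All 10 RYGB mice were above all 10 sham mice. The lowest RYGB values were those of RYGB Chow replicate 5 (5.88) and RYGB HFD replicate 2 (7.50), and the highest sham value was 5.72. RYGB HFD replicate 2 had ferritin as low as the rest of its group (1240 CPM *Fth1* and 1161 CPM *Ftl1*) while its *Tfrc* was near the sham level.

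**Figure D3:**
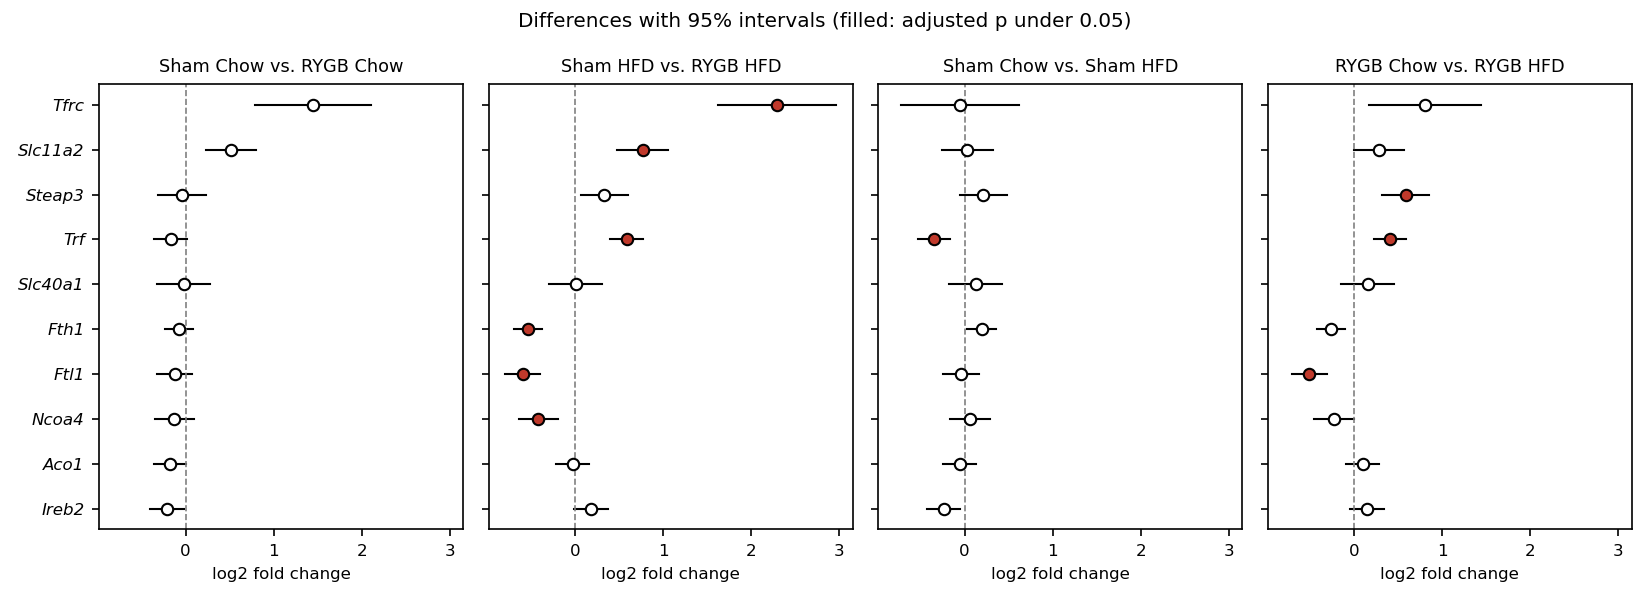
Log2 fold change of the 10 members (second group minus first) with 95% intervals in the 4 contrasts. Filled points have an adjusted p under 0.05. In Sham HFD vs. RYGB HFD 6 points are filled, from −0.59 (*Ftl1*) to 2.30 (*Tfrc*), and in Sham Chow vs. RYGB Chow none.

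The iron regulatory proteins passed in no contrast. *Aco1* (chromosome 4, 40143081 to 40198338), whose protein is IRP1 or, with an iron-sulfur cluster, cytosolic aconitase, lay between 171 and 274 CPM in all mice, and its lowest value was that of RYGB Chow replicate 3. The log2 difference in Sham HFD vs. RYGB HFD was −0.03 (95% interval −0.21 to 0.16). *Ireb2* (chromosome 9, 54863789 to 54912530), whose protein IRP2 is degraded when iron is plentiful, held 166, 157, 136, 136 and 146 CPM in Sham Chow and 134, 125, 131, 114 and 124 CPM in Sham HFD. All Sham HFD mice were below all Sham Chow mice, at a log2 difference of −0.24 (SE 0.09, adjusted p = 0.0692). This difference passed without RYGB Chow replicate 4 (adjusted p = 0.0378), a mouse outside that contrast. RYGB Chow ranged from 113 to 159 CPM and RYGB HFD from 131 to 154 CPM, and the *Ireb2* interaction was 0.38 (SE 0.13, adjusted p = 0.0936), or 0.47 (adjusted p = 0.0248) without the same mouse. IRP activity is set largely at the protein level, which was not measured here.

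By position of the IRE, both members with a 3′ UTR match (*Tfrc* and *Slc11a2*) rose in Sham HFD vs. RYGB HFD. Of the 3 with a 5′ UTR match, *Fth1* and *Ftl1* fell and *Slc40a1* did not pass. Of the 5 without a match, *Trf* rose, *Ncoa4* fell and *Steap3*, *Aco1* and *Ireb2* did not pass. Among 5 further genes with a known IRE, all tested, 1 rose and 1 fell in the same contrast. *Epas1*, which encodes HIF2α and has a known IRE in its 5′ UTR that this search did not match, rose by 0.79 (SE 0.15, adjusted p = 0.00128), from 181 ± 17.7 to 313 ± 43.3 CPM (n = 5 each). *Cdc14a*, a cell cycle phosphatase with an IRE in its 3′ UTR, fell by 0.74 (SE 0.20, adjusted p = 0.0127), near 3.44 and 2.05 CPM. *Alas2*, the erythroid enzyme of heme synthesis, lay between 44.0 and 123 CPM in all mice and was not called.

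Levels can be compared between genes only per length, here CPM per kb of annotated exon. In Sham Chow the order was *Ftl1* (1335 CPM per kb), *Fth1* (470), *Trf* (296), *Aco1* (57.7), *Slc40a1* (20.4), *Ireb2* (15.6), *Ncoa4* (10.2), *Slc11a2* (5.19), *Steap3* (4.53) and *Tfrc* (2.45). The ranges over mice overlapped for *Slc40a1* and *Ireb2* and for *Slc11a2* and *Steap3*, and the other neighbors in this order did not overlap. In RYGB HFD *Ftl1* was at 861 CPM per kb. *Fth1* (371) and *Trf* (349) there overlapped, and *Tfrc* (11.6) stood level with *Slc11a2* (9.05), *Ncoa4* (7.98) and *Steap3* (6.61), its range of 2.91 to 16.9 CPM per kb covering their means. Exon lengths count all annotated exons of a gene, so a gene whose liver transcript is shorter is understated.

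Values of the hepcidin genes are given because hepcidin acts on ferroportin. *Hamp* was 625 to 1102 CPM in Sham Chow and 231 to 437 CPM in Sham HFD, but 0.059 to 0.52 CPM in RYGB HFD and 1.08 to 10.8 CPM in 4 RYGB Chow mice, with RYGB Chow replicate 3 at 447 CPM. *Hamp2*, a close copy whose reads may be shared with *Hamp*, was 12.3 to 54.3 CPM in Sham HFD and at 0 counts in all RYGB HFD mice, at least 184-fold lower against a floor of 3 counts per library. RYGB Chow replicate 3 had *Tfrc* at 39.2 CPM and *Slc11a2* at 49.4 CPM, within the range of its group, while its *Hamp* was far above the rest of its group.

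Other cell types that make transferrin receptor were looked at through their markers. Of 10 erythroid markers 6 were tested, and 0 were called in any contrast by edgeR, DESeq2 or limma-voom, with 1 at an unadjusted p under 0.05 between sham and RYGB on each diet. They summed to 257 to 338 CPM in Sham HFD and 107 to 305 CPM in RYGB HFD, and to 160 to 470 CPM in Sham Chow and 103 to 378 CPM in RYGB Chow. Cell division markers (5 of 12 tested) summed to 37.9 to 55.1 CPM in Sham HFD and 30.8 to 44.7 CPM in RYGB HFD, and to 33.4 to 44.4 CPM in Sham Chow and 34.8 to 46.4 CPM in RYGB Chow. Of these, 0 were called by edgeR in Sham HFD vs. RYGB HFD, with 1 at an unadjusted p under 0.05, and 1 each by DESeq2 and limma-voom. On chow 3 of the 5 had an unadjusted p under 0.05 and 0 were called by the 3 tools (median 0.66). Most of the sum was *Pcna* (29.3 CPM in Sham Chow and 25.2 CPM in RYGB Chow, log2 difference −0.22), while *Mki67* (0.67) and *Top2a* (0.88) differed the other way, at 1.45 to 2.72 CPM. Their part in the *Tfrc* values was not tested. For both lists the lowest and the highest sums of RYGB HFD were below those of Sham HFD. Stellate cell markers fell in Sham HFD vs. RYGB HFD for 4 of 8 genes (median −0.36) and rose in Sham Chow vs. Sham HFD for 8 of 8 (median 0.87), and their part in the ferritin and *Ncoa4* differences was not tested. Of 8 endothelial markers 0 were called in any contrast by the 3 tools, with 2 at an unadjusted p under 0.05 in Sham HFD vs. RYGB HFD and 1 in Sham Chow vs. Sham HFD. The lymphocyte, neutrophil and cholangiocyte lists had 2, 1 and 2 tested genes, with *Ly6g* at 0 counts in all mice. Of the 2 lymphocyte markers 1 fell in Sham HFD vs. RYGB HFD (median −1.12, 2 at an unadjusted p under 0.05). Of the 2 cholangiocyte markers 1 rose in Sham Chow vs. Sham HFD (median 0.64). The neutrophil marker was called only by DESeq2, in Sham Chow vs. RYGB Chow (log2 difference 0.95 by edgeR). The part of these cells in the member values was not tested.

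A further 54 iron genes in 4 lists, 50 of them tested, showed the surroundings of the members. In Sham HFD vs. RYGB HFD 5 rose and 9 fell, where 16.4% of all tested genes were called. The median log2 difference of the 50 there was 0.04, against 0.01 over all genes. In Sham Chow vs. Sham HFD 5 rose and 8 fell (21.6% of all genes). In RYGB Chow vs. RYGB HFD 2 rose and 1 fell (3.65% of all genes). In Sham Chow vs. RYGB Chow 0 passed by edgeR, DESeq2 or limma-voom, with 6 at an unadjusted p under 0.05. By edgeR 0.057% of all genes passed there. In the interaction 1 was higher and 3 were lower (5.06% of all genes).

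Among 13 genes of the uptake and transferrin cycle (12 tested), 4 rose and 3 fell in Sham HFD vs. RYGB HFD (16.4% of all genes). *Scara5*, a ferritin receptor, rose by 3.34 (SE 0.73, adjusted p = 0.00324) over a wide spread, from 1.97 ± 0.956 to 19.97 ± 19.03 CPM (n = 5 each). *Steap2*, a relative of *Steap3*, rose by 0.98 (SE 0.20, adjusted p = 0.00239). *Hfe*, a partner of the receptors that signals to hepcidin, fell by 0.50 (SE 0.08, adjusted p = 1.66e-04), and *Tfr2*, the iron-sensing second receptor, rose by 0.46 (SE 0.07, adjusted p = 1.12e-04).

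*Tfr2* passed in the direction of *Trf* after RYGB on HFD, with diet in sham mice and in the interaction, but did not pass in RYGB Chow vs. RYGB HFD (log2 difference 0.15, adjusted p = 0.240), where *Trf* rose. It held 345 to 374 CPM in Sham HFD and 467 to 531 CPM in RYGB HFD, fell by 0.30 in Sham Chow vs. Sham HFD (adjusted p = 0.00399) and had an interaction of 0.45 (adjusted p = 0.0104). In sham mice on HFD *Lcn2*, which binds bacterial siderophores that carry iron, rose by 3.43 (adjusted p = 4.86e-05), *Scara5* fell by 2.42 (adjusted p = 0.0213), and *Slc11a1*, the macrophage relative of *Slc11a2*, rose by 0.86 (adjusted p = 0.0261). *Steap4* rose with HFD by 0.63 in sham mice (adjusted p = 0.00160) and by 0.62 after RYGB (adjusted p = 0.00816).

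Of 6 export genes and oxidases (5 tested), *Slc48a1*, a heme transporter, fell after RYGB on HFD by 0.48 (SE 0.11, adjusted p = 0.00436). In RYGB Chow vs. RYGB HFD it fell by 0.43 (adjusted p = 0.0322). In the same contrast *Cp*, the ferroxidase ceruloplasmin that loads exported iron onto transferrin, rose by 0.38 (SE 0.09, adjusted p = 0.0280), from 1100 ± 103 to 1430 ± 164 CPM (n = 5 each). *Cp* and *Trf* thus both rose with HFD after RYGB, while *Cp* did not pass in Sham Chow vs. Sham HFD (log2 difference 0.22, adjusted p = 0.0924).

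Of 12 genes of storage, chaperones and IRP control (10 tested), *Fbxl5*, the iron-sensing subunit that marks IRP2 for degradation, fell after RYGB on HFD by 0.30 (SE 0.06, adjusted p = 0.00138), from 40.6 ± 1.26 to 32.9 ± 0.896 CPM (n = 5 each). It rose by 0.28 (adjusted p = 0.00195) in Sham Chow vs. Sham HFD, with an interaction of −0.35 (adjusted p = 0.0184). *Fbxl5* thus had its highest mean in Sham HFD, as *Fth1* did. The *Ireb2* mean there (126 ± 7.89 CPM) was close to that of RYGB Chow (128 ± 20.8 CPM, n = 5 each), whose median was lower (115 against 125 CPM). *Bola2*, a partner in cytosolic iron-sulfur transfer, fell by 0.48 (adjusted p = 0.00726) in Sham Chow vs. Sham HFD.

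Of 23 mitochondrial iron and iron-sulfur cluster genes, all tested, 1 rose and 4 fell in Sham HFD vs. RYGB HFD (16.4% of all genes). *Iscu*, the scaffold on which clusters are built, fell by 0.58 (SE 0.10, adjusted p = 5.10e-04), from 95.3 ± 6.67 to 63.5 ± 6.22 CPM (n = 5 each). *Glrx5*, which passes clusters on, fell by 0.50 (SE 0.14, adjusted p = 0.0173), *Bola3* by 0.35 (adjusted p = 0.0447), and *Abcb10*, a mitochondrial transporter tied to heme synthesis, rose by 0.38 (SE 0.09, adjusted p = 0.00431). The decreases of *Iscu* and *Glrx5* were about as large as that of *Fth1*, but their list as a whole had a median of 0.00, and the remaining 18 genes did not pass. In Sham Chow vs. Sham HFD 5 of the 23 fell, close to the share of all tested genes called there in either direction (21.6%). The largest decreases were those of *Lyrm4* (−0.46), *Fdx1* (−0.37), *Hspa9* (−0.27) and *Abcb10* (−0.25).

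**Figure D4:**
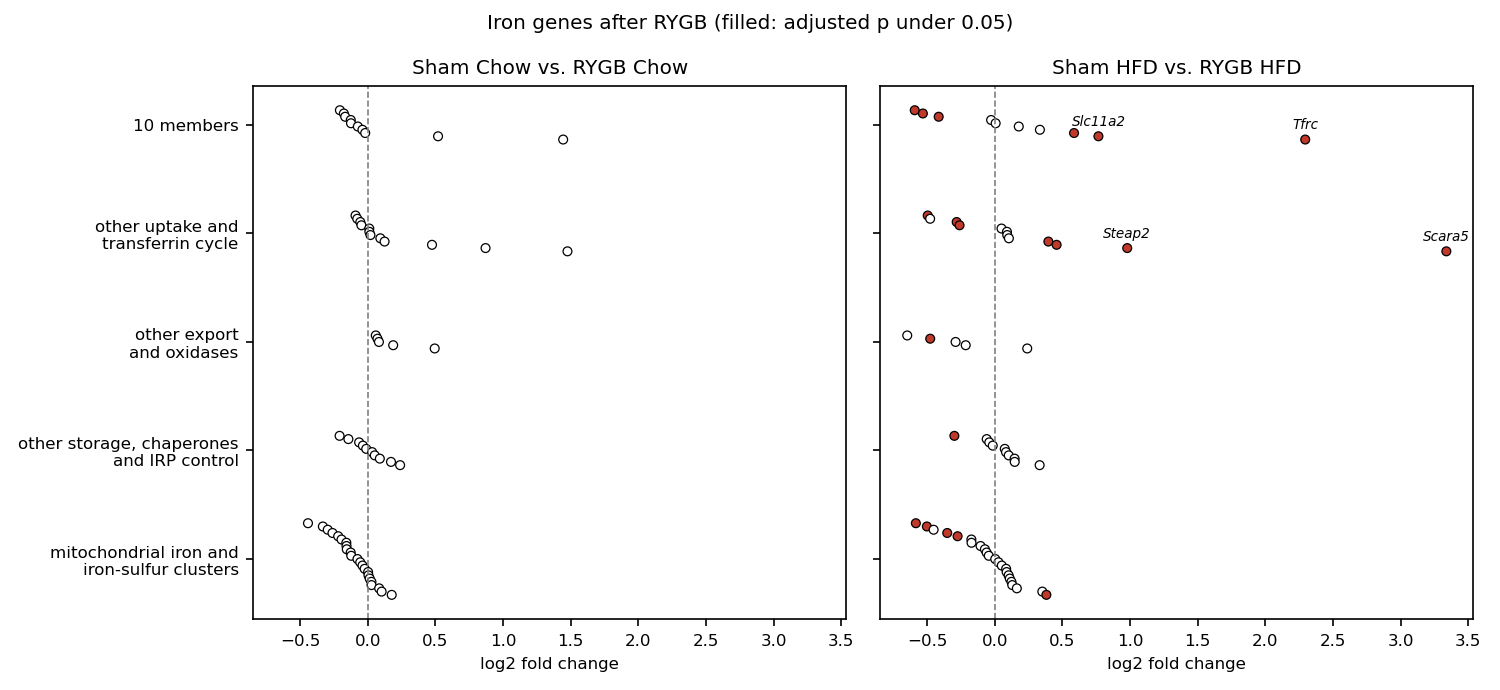
Log2 fold changes after RYGB on chow (left) and on HFD (right) for the 10 members and the 4 lists of other iron genes, one point per tested gene. Filled points have an adjusted p under 0.05, and called genes beyond 0.7 are named. On chow no point is filled. On HFD the largest values are *Scara5* (3.34) and *Tfrc* (2.30).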

How the data were processed

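Per the labels and the study's methods, poly-A RNA of each liver was sequenced as strand-specific paired-end libraries. The authors trimmed reads with Trimmomatic 0.36, aligned them to mm10 with HISAT2 2.1.0 and deposited gene counts from featureCounts 1.5.0-p3, without normalization. The annotation release, the strand setting of counting and the handling of reads with several matches are not given in the sources used here. Symbols, positions and exon lengths came from GENCODE M21, which named 54495 of 54532 genes.

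Counts were fitted with edgeR 4.0.16 (R 4.3.3): TMM factors, genes with 2 CPM or more in 3 or more mice, 1 quasi-likelihood model of all 4 groups, two-sided, Benjamini-Hochberg over 12289 genes. Log2 differences are the second group minus the first. Single genes were compared on log2(CPM + 0.5) by an exact permutation test. In Sham HFD vs. RYGB HFD, with 200 simulated changed genes, the fit recovered 90.7% of 108 changes of 1 on the log2 scale. It recovered 98.9% of 92 changes of 2, and there were 9 false calls. All groups were simulated from the Sham HFD means, and only the 200 genes were changed. The simulated spread was the one typical of a gene's level, not its own. Recovery for a gene with a wide spread, such as *Tfrc* in RYGB HFD (coefficient of variation 47.3%), was therefore not tested. Recovery of changes smaller than 1, the size found for every member but *Tfrc*, was not tested. Alternatives were DESeq2 1.42.0, limma-voom 3.58.1, scaling by RLE factors or by library size alone, omission of the filter, a filter at 5 CPM, only the 2 groups of a contrast, the replicate number as a block, and each mouse left out. No molecular identifiers were used, so the floor of 3 counts reflects counting error alone.

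The members, lists, rules and tests were chosen with earlier results of these data known. Named were all members, *Hamp* and *Hamp2*, at most the 4 called genes with the largest change per list and contrast, and the 5 genes most like *Tfrc* and *Slc11a2*. *Alas2*, the marker genes given by name and the ratios to hepatocyte markers were chosen after values were seen.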

Additional observations from a re-analysis of the deposited data

Results flagged for a closer look

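Among 40 groups of 5 mice (10 members in 4 groups), the gap of 1 mouse to its nearest neighbor exceeded Dixon's 95% critical value for 2, as chance does for about 1 in 20. *Fth1* in Sham HFD replicate 1 was 1659 CPM, below the other 4 mice (1889 to 1937 CPM), and without it the decrease in Sham HFD vs. RYGB HFD was 0.58 on the log2 scale in place of 0.53. *Ncoa4* in RYGB HFD replicate 5 was 92.4 CPM, above the other 4 mice (66.8 to 74.3 CPM).

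The response to HFD differed between RYGB and sham mice for 3 members by the interaction test. In the same interaction 3 of 8 hepatocyte markers were higher (median 0.49) and 3 of 8 stellate cell markers lower (median −0.76), and their part in these results was not tested. The difference was 0.75 for *Trf*, which fell with HFD in sham mice and rose after RYGB. For *Fth1* it was −0.46, from log2 differences of 0.19 in sham and −0.27 in RYGB mice that each missed the threshold. For *Ftl1* it was −0.47, from −0.04 in sham and −0.51 in RYGB mice, the latter past the threshold.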

How the results depend on the processing

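The 6 calls among the members in Sham HFD vs. RYGB HFD held in each of 8 alternative settings and with each of the 20 mice left out. The number of members called in Sham Chow vs. RYGB Chow was 2 with DESeq2 and 1 without a filter, against 0, and 0 to 1 with 1 mouse left out. In Sham Chow vs. Sham HFD it was 2 with DESeq2, 3 with library size only, 2 with CPM of at least 5 and 2 with only the 2 groups, against 1, and 1 to 2 with 1 mouse left out. In the interaction it was 1 without a filter, against 3. All genes called in Sham Chow vs. RYGB Chow numbered 92 with DESeq2, 3 with limma-voom, 13 without a filter and 0 with only the 2 groups, against 7, and 0 to 15 with 1 mouse left out. In RYGB Chow vs. RYGB HFD they numbered 751 with DESeq2 and 184 with only the 2 groups, against 448, and 253 (without RYGB HFD replicate 3) to 483 with 1 mouse left out. In the interaction they numbered 386 (without Sham HFD replicate 3) to 802, against 622. The causes were not tested.

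Library size only moved the median of all genes by 0.13 in Sham Chow vs. Sham HFD and by −0.14 in the interaction, and the called genes in Sham HFD vs. RYGB HFD went from 1050 higher and 971 lower to 542 and 1497, in Sham Chow vs. Sham HFD from 1337 and 1319 to 2279 and 554, and in the interaction from 305 and 317 to 151 and 597. The 7 genes called in Sham Chow vs. RYGB Chow were 6 higher and 1 lower, the 92 of DESeq2 66 and 26, and the 3 of limma-voom 2 and 1. Under library size only, *Tfrc* (0.080), *Ftl1* (0.090) and *Aco1* (0.075) turned positive in Sham Chow vs. Sham HFD, and *Slc40a1* changed sign in the interaction (−0.14) and in Sham Chow vs. RYGB Chow (0.048). *Slc40a1* in Sham HFD vs. RYGB HFD (0.01) was −0.00072 with DESeq2, −0.00072 with RLE factors, −0.088 with library size only, −0.00042 without a filter, −0.011 with CPM of at least 5, −0.0017 with only the 2 groups and −0.00088 with the replicate block.

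With 1 mouse left out, the sign changed for *Slc40a1* in Sham Chow vs. RYGB Chow (−0.16 to 0.10), Sham HFD vs. RYGB HFD (−0.048 to 0.058) and the interaction (−0.095 to 0.16), for *Steap3* in Sham Chow vs. RYGB Chow (−0.14 to 0.028), and in Sham Chow vs. Sham HFD for *Tfrc* (−0.15 to 0.047), *Slc11a2* (−0.019 to 0.11), *Ftl1* (−0.091 to 0.017) and *Ncoa4* (−0.0085 to 0.098). *Trf* in RYGB Chow vs. RYGB HFD missed the threshold with only the 2 groups (adjusted p = 0.0565).

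Groups share replicate numbers whose meaning is not stated. Deviations of same-numbered mice did not go together (median r of −0.01 over 30 pairs, 5 of them over 0.1), and 2 of 20 mice were nearest to their own number. With the replicate block *Ftl1* missed the threshold in the interaction (−0.47, adjusted p = 0.0730), and no other call of a member was lost.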
